A study of Mus musculus with 15 samples.

Results

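The forkhead genes *Foxp1*, *Foxp2*, *Foxp3*, *Foxp4*, *Foxo1*, *Foxo3* and *Foxo4* were followed by RNA sequencing in A20 cells whose *Foxp1* gene had been edited, to see whether the relatives of *Foxp1* changed when *Foxp1* itself was disrupted. These 7 genes were taken by symbol from the 41388 genes of the count tables, which list 44 forkhead genes in all. A20 is a mouse B-cell lymphoma line of BALB/c origin. The groups were the unedited A20 parental line (genotype WT), the clones E6.1 and E6.2, which carry a mutation in *Foxp1* exon 6, and the clones E7.1 and E7.2, which carry one in *Foxp1* exon 7. Each line had 3 libraries from separate passages, 15 in all. Each edited line grew from a single sorted cell and, by the study's methods, carries a frameshift with a premature stop codon, so a feature of the founder cell cannot be told apart from an effect of the edit. RNA was measured in bulk, and fewer cells expressing a gene and less RNA per cell cannot be told apart either.

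Forkhead factors bind DNA through a winged-helix domain. FOXP proteins act mostly as repressors, form homodimers and heterodimers with each other through a leucine zipper, and recruit corepressors, and FOXP1 is needed for early B-cell development and is abundant in aggressive B-cell lymphomas. FOXO proteins activate genes for cell cycle arrest, apoptosis, metabolism and lymphocyte homing, and growth factor signalling through PI3K and AKT keeps them out of the nucleus. FOXP1 and FOXO factors recognise similar DNA sequences.

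Exons 6 and 7 are shown because the members' question starts from the edited exons. The labels number the edited exons without naming a transcript, so their match to the exons printed here was not checked. Exon numbers depend on the transcript, and here they are those of Foxp1-204, the longest coding transcript of *Foxp1* in GENCODE M21, with 7177 bases and 19 exons, on the reverse strand of chromosome 6 of GRCm38. Exon 6 (chr6:99016528-99016665) has 138 bases and exon 7 (chr6:99015424-99015510) has 87 bases, and both are coding and hold whole codons. The sequences are given 5′ to 3′ in the sense of the transcript, with ATG codons in the reading frame of Foxp1-204 in capitals.
Foxp1 exon 6: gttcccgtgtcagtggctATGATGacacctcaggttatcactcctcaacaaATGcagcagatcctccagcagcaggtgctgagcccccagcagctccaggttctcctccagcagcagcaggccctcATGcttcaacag
Foxp1 exon 7: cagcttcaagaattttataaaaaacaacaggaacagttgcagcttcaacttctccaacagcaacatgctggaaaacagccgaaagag
Exon 6 holds 4 in-frame ATG codons and exon 7 holds 0. Of the 20 coding *Foxp1* transcripts, 10 have exon 6 with exactly these ends within their coding sequence and 9 have exon 7 so. Counts were made per gene, over all exons together, so the values below do not separate transcripts that carry an edit from transcripts that lack the exon.

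Totals ran from 26328054 to 39181530 read pairs per library. The smallest level counted as detected, 3 read pairs, corresponded to 0.0751 to 0.118 CPM (counts relative to library size, with library sizes scaled by TMM), which covers counting error only. The 9 of 10 listed B-cell markers that the tables hold, among them *Cd79a*, *Ms4a1* and *Pax5*, all stood above 1 CPM in every library, with a summed level of 3700 to 4280 CPM in parental cells and 3710 to 5850 CPM in the clones. Of 11 T-cell markers, 7 had at most 3 counts in every library, including *Cd3e*, with a count of 0 throughout, *Cd3d* and *Cd3g*. Others were counted, with *Lck* at 24 to 80 counts and *Cd4* at 5 to 23, and the summed level of the 11 ran from 0.91 to 2.44 CPM. Of 6 myeloid markers, *Cd14*, *Lyz2* and *S100a8* had at most 3 counts, and the summed level of the 6 ran from 0.421 to 8.1 CPM. Of 5 fibroblast markers, *Col1a2* and *Col3a1* had at most 3 counts, with a summed level of 0.358 to 0.93 CPM. Of 4 plasma cell markers, 3 stood above 1 CPM in every library, and their sum was 877 to 1170 CPM in E6.2 against 1420 to 1960 CPM in parental cells. By TMM factor or by genes counted mainly in 1 library, 3 libraries stood apart. Replicate 3 of E6.2 and replicate 3 of E7.2, called the low-factor libraries here, had the lowest TMM factors (the factors that correct library sizes for composition), 0.906 and 0.826, against 0.966 or more in the others. With both left out, edgeR called 15.2% (E7.1), 2.26% (E6.2), 1.53% (E7.2) and 0.924% (E6.1) of 14284 tested genes, 1.16% in the mean of the 4 clones and 33.1% between the E7 and the E6 clones. The share called in E7.1 also rose, from 1.22% to 6.81%, when only parental replicate 1 was left out. Replicate 1 of E6.2 had the most genes with a count, 19799, and 180 of the 27484 genes that failed the filter on low counts had at least 20 counts there and at least 5 times the level of any other library, against 0 to 13 such genes elsewhere. Results that rest on these libraries are given with and without them.

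The first question was how much *Foxp1* mRNA, coding for the edited repressor itself, each line kept. In parental replicates 1, 2 and 3, *Foxp1* (ENSMUSG00000030067, chr6:98925338-99522721) stood at 102, 166 and 147 CPM. It stood at 103, 99.5 and 109 CPM in E6.1 and at 109, 104 and 105 CPM in E6.2. In E7.1 it stood at 41.7, 64.2 and 64.3 CPM and in E7.2 at 37.1, 39.6 and 52.3 CPM. The 6 E7 libraries all lay below all other libraries (they lay below all E6 libraries in 1.75% of genes), whereas those of the E6 clones overlapped parental replicate 1, the lowest of its group. *Foxp1* fell to 41.0% of the parental level in E7.1 (95% interval 0.307- to 0.549-fold, adjusted p = 0.00688) and to 31.1% in E7.2 (0.232- to 0.416-fold, adjusted p = 0.00116) by the quasi-likelihood test of edgeR, with p-values adjusted by the Benjamini-Hochberg method. *Foxp1* was the only one of the 5 members tested that was called in either clone, where 0.82% and 0.209% of the 13904 tested genes were called lower. In E6.1 and E6.2 the estimates were 75.0% (0.561- to 1.00-fold, adjusted p = 0.765) and 76.5% (0.572- to 1.02-fold, adjusted p = 0.417), and neither passed, in clones where 0.266% and 1.01% of genes were called lower. Leaving out single libraries moved the log2 fold change between -0.59 and -0.26 in E6.1 and between -0.55 and -0.24 in E6.2, without a call. The difference between the E7 and the E6 clones was tested itself. Each exon is represented by 2 clones and n counts their libraries. The test thus measures the spread between passages and cannot tell exon from clone. *Foxp1* averaged 49.9 ± 12.3 CPM (SD, n = 6) in the E7 clones and 105 ± 3.47 CPM (SD, n = 6) in the E6 clones, a log2 difference of -1.09 (95% interval -1.38 to -0.79, edgeR adjusted p = 0.000609), in a comparison that called 5.85% of genes lower and 6.21% higher. For the mean of the 4 clones against parental cells the log2 fold change was -0.94 (adjusted p = 0.00814), and 0.503% of genes were called, 0.46% lower and 0.0432% higher. That call depends on the fit, since treating the clones as 1 group of 12 libraries gave -0.84 with an adjusted p of 0.834, and leaving out parental replicate 2 gave -0.79 with 0.106 and parental replicate 3 -0.90 with 0.0692. The E7.1 call was lost without parental replicate 2 (log2 fold change -1.13, edgeR adjusted p = 0.0533), and the E7.2 call in a fit of only the 6 libraries compared (-1.67, 0.0538). In GENCODE M21 the exons of *Foxp1* share 300 bases with *Gm20696*, a gene with 134 counts in replicate 1 of E6.2 and 0 to 20 in the other libraries. Read pairs in bases shared in the counted exons went to neither gene, but the overlap was not checked in the annotation used for counting.

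**Figure D1:**
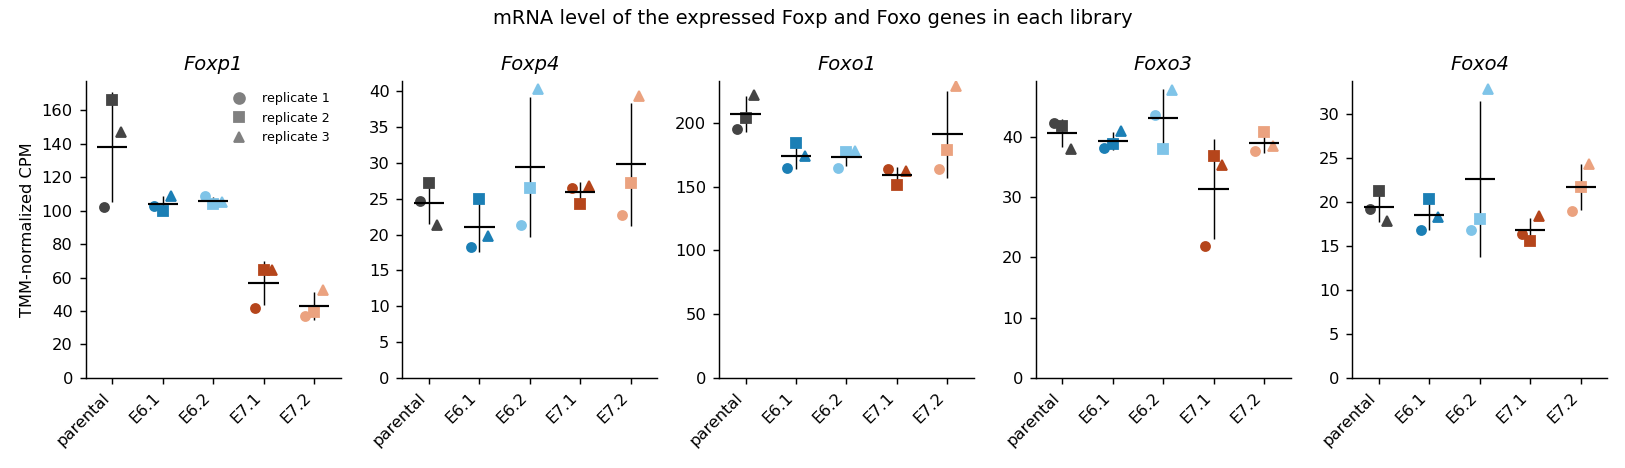
TMM-normalized CPM (linear axes from 0) of the 5 expressed members in each library, by line. Symbols give the replicate number, horizontal bars the mean and vertical bars the SD of 3 libraries. *Foxp1* falls to between 37.1 and 64.3 CPM in the E7 clones, while every line of *Foxp4* and *Foxo4* overlaps the parental values.

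*Foxp4* is the closest expressed relative of *Foxp1* here and codes for a FOXP protein able to dimerise with FOXP1. In parental replicates 1 to 3, *Foxp4* (ENSMUSG00000023991, chr17:47867133-47924645) stood at 24.7, 27.2 and 21.4 CPM. It stood at 18.2, 24.9 and 19.8 CPM in E6.1 and at 21.4, 26.5 and 40.3 CPM in E6.2. It stood at 26.5, 24.3 and 26.8 CPM in E7.1 and at 22.7, 27.2 and 39.4 CPM in E7.2. Every line overlapped the parental line, and the highest values, 40.3 and 39.4 CPM, came from the low-factor libraries. No call was made in any comparison, and the estimates ran from 0.858-fold in E6.1 to 1.22-fold in E7.2 (95% interval 0.861- to 1.73-fold, edgeR adjusted p = 0.584). Without those libraries the log2 fold change of *Foxp4* in E7.2 was 0.07 (95% interval -0.29 to 0.42) in place of 0.29, and in E6.2 it was -0.03 (-0.39 to 0.32) in place of 0.27. The higher estimates of *Foxp4* thus rested on those 2 libraries, and with all libraries the interval in E7.2 ended at 1.73-fold.

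*Foxp2*, known for its roles in the brain and lung, and *Foxp3*, the lineage factor of regulatory T cells, were near the limit of detection and failed the filter, so neither was tested. *Foxp2* (ENSMUSG00000029563, chr6:14901349-15441977) had 1, 2 and 1 counts in parental replicates 1 to 3, 1, 2 and 4 in E6.1, and 0 in each library of E6.2. It had 3, 6 and 0 counts in E7.1 and 0, 3 and 0 in E7.2. *Foxp2* thus reached the floor of 3 counts in 1 library of E6.1, 2 of E7.1 and 1 of E7.2, and in none of the parental line or E6.2. *Foxp3* (ENSMUSG00000039521, chrX:7579676-7595243) had 7, 3 and 1 counts in parental replicates 1 to 3 and 6, 6 and 3 in E6.1. It had 43, 3 and 4 counts in E6.2, 1, 5 and 1 in E7.1 and 3, 1 and 3 in E7.2. The count of 43, or 1.69 CPM, in replicate 1 of E6.2 was the exception, and the other 14 libraries held 1 to 7. In that library *Cd3e*, *Cd3d*, *Cd3g* and *Ikzf2* had 0 counts, *Il2ra* had 3, *Ctla4* had 4 and *Cd4* had 6. *Lck* had 46 counts there, or 1.81 CPM, within its range of 0.669 to 2.04 CPM over all libraries. This library is the one with 180 otherwise low genes standing out. *Flicr*, a noncoding RNA whose exons share 853 bases with *Foxp3*, had 34 counts there and 4 to 24 elsewhere. *Ppp1r3f*, which shares 266 bases on the opposite strand, had 116 counts there, within its range of 66 to 130 in the others. Counting was without strand and, at the counter's default, gave read pairs in bases shared by exons of both genes to neither. The shared bases are those of GENCODE M21 and were not checked in the annotation used for counting.

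**Figure D2:**
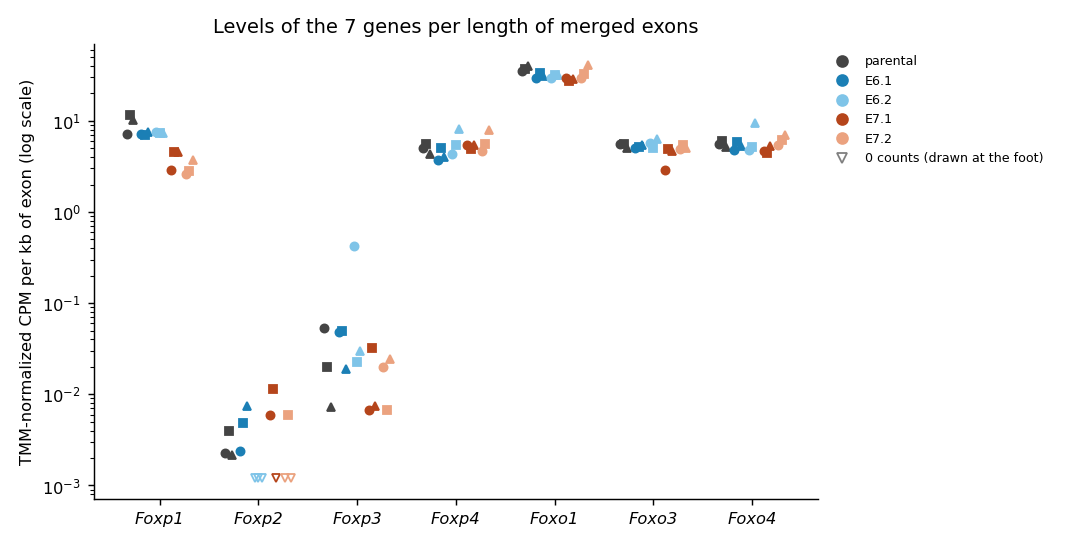
TMM-normalized CPM per kilobase of merged exon (log axis) of the 7 genes in each library, coloured by line, with symbols for replicates 1 (circle), 2 (square) and 3 (triangle). Open triangles at the foot mark libraries with 0 counts. *Foxo1* lies highest and *Foxp2* and *Foxp3* lowest in every line, and *Foxp1* drops from the second place to the level of *Foxp4*, *Foxo3* and *Foxo4* or below in the E7 clones.

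Levels of different genes were compared per kilobase of merged exon. In parental cells *Foxo1* led with 37.3 ± 2.52 CPM per kilobase (SD, n = 3). *Foxp1* followed with 9.70 ± 2.29 and did not overlap its neighbours in that order. *Foxo4* at 5.57 ± 0.483, *Foxo3* at 5.36 ± 0.31 and *Foxp4* at 4.96 ± 0.585 CPM per kilobase overlapped one another and could not be ordered. *Foxp3* at 0.0268 and *Foxp2* at 0.00279 CPM per kilobase came last. In E7.1 *Foxp1*, at 3.98 ± 0.914 CPM per kilobase, ranked below *Foxo1*, *Foxp4*, *Foxo4* and *Foxo3* by its mean and overlapped *Foxo3* at 4.13 ± 1.09. In E7.2 *Foxp1*, at 3.01 ± 0.574 CPM per kilobase, lay below all libraries of *Foxo3*, *Foxp4* and *Foxo4*. Per kilobase of the longest coding transcript, parental *Foxo1* averaged 23.9 and parental *Foxp1* 19.3 CPM per kilobase. Their libraries overlapped, with *Foxo1* at 22.5 in replicate 1 and *Foxp1* at 23.1 in replicate 2. The lead of *Foxo1* in parental cells thus depended on the lengths used, and these come from 2 annotations. The longest coding transcript of *Foxo1* in GENCODE M21 has 8665 bases, against 5552 bases of merged exon that were counted. It therefore holds bases in which no read pairs were counted, which lowers the level of *Foxo1* per kilobase of that transcript. *Foxp1* has a merged exon length of 14266 bases from many alternative exons against 7177 in its longest coding transcript, which lowers its level per kilobase of merged exon.

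Summed over the 4 Foxp genes, the level per kilobase reached 14.7 ± 2.47 CPM (SD, n = 3) in the parental line. It was 11.6 ± 0.557 in E6.1 and 13.5 ± 1.74 in E6.2, overlapping the parental range of 12.2 to 17.2 in E6.2 but not in E6.1, where the highest library was at 12.1. It was 9.25 ± 0.835 in E7.1 and similar at 9.08 ± 2.32 in E7.2, and all 6 libraries of the E7 clones, at 7.24 to 11.7 CPM per kilobase, lay below the parental range. *Foxp1* made up 65.5% ± 6.13 of the Foxp sum in parental cells but 33.6% ± 2.27 in E7.2 and 42.7% ± 6.62 in E7.1 (SD, n = 3), with *Foxp4* supplying nearly all the rest. The sum contains *Foxp1*, whose fall was tested above, and it was not tested again. The Foxo sum was 48.2 ± 1.98 CPM per kilobase in parental cells. Among the clones it was lowest in E7.1, at 37.6 ± 1.34, followed by 41.9 ± 2.32 in E6.1, 43.3 ± 3.88 in E6.2 and 45.8 ± 6.89 in E7.2.

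**Figure D3:**
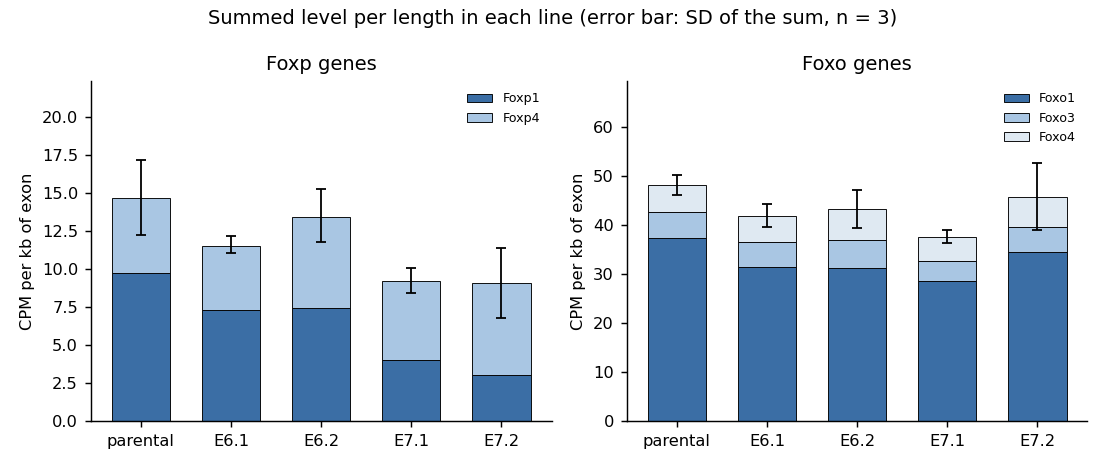
Mean level of each Foxp gene (left) and Foxo gene (right) per kilobase of merged exon, stacked by line, with linear axes from 0. Error bars give the SD of the sum over 3 libraries, and *Foxp2* and *Foxp3* are too low to draw. The Foxp sum falls from 14.7 in parental cells to 9.08 CPM per kilobase in E7.2, and the fall is in the *Foxp1* layer.

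*Foxo1* codes for the FOXO protein that B-cell development and peripheral B-cell homing depend on most. In parental replicates 1 to 3, *Foxo1* (ENSMUSG00000044167, chr3:52268337-52350109) stood at 195, 204 and 222 CPM. It stood at 165, 184 and 174 CPM in E6.1 and at 165, 177 and 178 CPM in E6.2. It stood at 164, 151 and 162 CPM in E7.1 and at 164, 179 and 229 CPM in E7.2. The level was below all parental libraries in 11 of the 12 clone libraries, and the exception, replicate 3 of E7.2, was the highest of all. All 3 libraries were below the parental ones in clone E6.1, as for 11.2% of genes, in clone E6.2, as for 8.61%, and in clone E7.1, as for 15.6%. Of the tested genes, 2.63% had 11 or 12 clone libraries below all parental libraries. The estimates were 0.767-fold in E7.1 (adjusted p = 0.122), 0.836-fold in E6.2 (0.413), 0.842-fold in E6.1 (0.822) and 0.922-fold in E7.2 (0.692), and none passed edgeR's quasi-likelihood test. The mean of the 4 clones was 0.840-fold (95% interval 0.721- to 0.979-fold) with an unadjusted p of 0.026 and an adjusted p of 0.423 from edgeR, so the direction was downwards but not called. Replicate 3 of E7.2 is a low-factor library. Without the low-factor libraries the log2 fold change in E7.2 was -0.24 (95% interval -0.46 to -0.01, edgeR adjusted p = 0.238) in place of -0.12. For the mean of the 4 clones it was then -0.28 (-0.44 to -0.12, edgeR adjusted p = 0.0974) in place of -0.25, again without a call. In E7.1 the call depended on the method. DESeq2's Wald test gave an adjusted p of 0.0463, and edgeR without the low-factor libraries gave a log2 fold change of -0.36 with an adjusted p of 0.0264, in a fit that called 15.2% of genes in that clone. In the order of line means E7.1 was lowest. Its highest library, at 164 CPM, was close to the lowest of its neighbour E6.2, at 165 CPM, and the other neighbours overlapped. Between the E7 and the E6 clones *Foxo1* differed by a log2 value of 0.00 (95% interval -0.19 to 0.20).

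*Foxo3*, coding for a FOXO protein known for its part in apoptosis and stress resistance, had its lowest level in E7.1. In parental replicates 1 to 3, *Foxo3* (ENSMUSG00000048756, chr10:42181841-42276755) stood at 42.2, 41.7 and 37.9 CPM. It stood at 38.1, 38.8 and 41.0 CPM in E6.1 and at 43.5, 37.9 and 47.7 CPM in E6.2. It stood at 21.8, 36.7 and 35.3 CPM in E7.1 and at 37.6, 40.8 and 38.5 CPM in E7.2. The E7.1 libraries were all below the parental ones, as were those of 15.6% of tested genes in that clone, and replicate 1 was far below its own group. The log2 fold change of *Foxo3* in E7.1 was -0.38 (95% interval -0.73 to -0.02, edgeR adjusted p = 0.225), and leaving out single libraries moved it between -0.51 and -0.17. In the other clones it lay between -0.06 and 0.08. In the order of line means E6.2, the parental line, E6.1 and E7.2 each overlapped the next of these lines. E7.1 came last, with its highest library at 36.7 CPM, close to the lowest of E7.2 at 37.6 CPM.

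*Foxo4* codes for a smaller FOXO protein on the X chromosome. In parental replicates 1 to 3, *Foxo4* (ENSMUSG00000042903, chrX:101254528-101260873) stood at 19.2, 21.2 and 17.8 CPM. It stood at 16.8, 20.3 and 18.3 CPM in E6.1 and at 16.8, 18.1 and 32.8 CPM in E6.2. It stood at 16.4, 15.6 and 18.4 CPM in E7.1 and at 19.0, 21.7 and 24.3 CPM in E7.2. All 4 clones overlapped the parental line, and the one value far above the rest, 32.8 CPM, again came from replicate 3 of E6.2. The estimates ran from 0.865-fold in E7.1 to 1.16-fold in E6.2, with edgeR adjusted p from 0.627 to 0.994, and the 95% intervals of the 4 clones lay within 0.627- to 1.60-fold. Without replicate 3 of E6.2 the log2 fold change in E6.2 was -0.14 in place of 0.22.

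**Figure D4:**
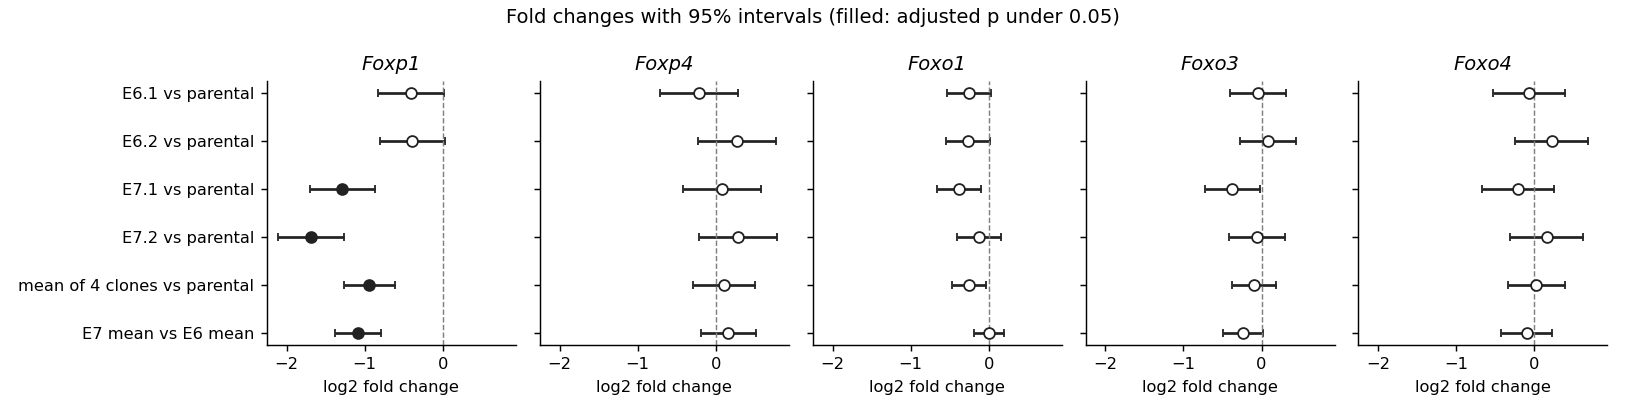
Log2 fold change (horizontal axis) with its 95% interval for the 5 tested members in 6 comparisons, from edgeR's quasi-likelihood fit of all 15 libraries. Filled circles have an adjusted p under 0.05. Only *Foxp1* has filled circles, in E7.1, E7.2, the mean of the 4 clones and the difference between E7 and E6, and the highest upper bound of any other member is that of *Foxp4* in E7.2, a log2 value of 0.79.

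Over the 4 relatives tested, 0 of 16 comparisons with parental cells gave a higher call, in clones where 0.396% (E7.1), 0.165% (E6.2), 0.0863% (E7.2) and 0.0575% (E6.1) of genes were called higher. At an unadjusted p under 0.05 from edgeR in a single clone the only relatives were *Foxo1* and *Foxo3* in E7.1, both with lower estimates. In that clone 20% of all tested genes had such a p. DESeq2 likewise called none higher. The comparisons share the parental libraries and are not independent.

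The remaining 37 forkhead genes were examined for the same question, and 11 of them passed the filter. None was called in any clone by edgeR, where 1.22% (E7.1), 1.17% (E6.2), 0.324% (E6.1) and 0.295% (E7.2) of all genes were. At an unadjusted p under 0.05 there were 3 in E7.1, 2 in E7.2 and 1 in each E6 clone, and that p was given to 20% (E7.1), 13.3% (E7.2), 13.1% (E6.2) and 6.71% (E6.1) of all genes. *Foxn2* and *Foxd2*, named because they had the smallest unadjusted p in the mean of the 4 clones, code for forkhead factors studied mainly outside B cells. *Foxn2* stood at 100 ± 8.10 CPM in parental cells and at 72.0 ± 3.80 CPM (SD, n = 3) in E7.2, at a log2 fold change of -0.48 (edgeR adjusted p = 0.209). *Foxd2* was barely expressed, at 0.142 ± 0.0504 CPM in parental cells, 0.348 ± 0.0754 in E7.1 and 0.367 ± 0.0442 in E7.2 (SD, n = 3), with log2 fold changes of 1.26 and 1.34 (edgeR adjusted p = 0.139 and 0.26). Without the low-factor libraries, 2 of the 11 were called in E7.1 and 1 in E7.2, in fits that called 15.2% and 1.53% of all genes.

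Genes reported as direct FOXO targets, such as cell cycle inhibitors, proapoptotic genes and homing receptors, were counted as a readout that does not use the members' own mRNA. Of 59 listed symbols, with *Selenop* also listed under its older name *Sepp1*, 42 passed the filter. In E7.1, 2 were called, both lower, which is 4.76% against 1.22% of all genes, and 0 were called in the other 3 clones. At an unadjusted p under 0.05 there were 12 in E7.1, beside 20% of all genes, 7 in E6.2, beside 13.1%, 5 in E7.2, beside 13.3%, and 2 in E6.1, beside 6.71%. The 2 called genes were *Cdkn1b*, an inhibitor of cyclin-dependent kinases, and *Pmaip1*, which codes for the proapoptotic protein NOXA. *Cdkn1b* fell from 64.5 ± 16.6 CPM in parental cells to 30.9 ± 4.62 CPM in E7.1 (SD, n = 3), with the log2 fold change at -1.06 (edgeR adjusted p = 0.049). *Pmaip1* fell from 74.0 ± 11.5 to 42.8 ± 2.76 CPM (SD, n = 3), with the log2 fold change at -0.79 (edgeR adjusted p = 0.04). The list gives no direction of FOXO control for each gene, so its median does not measure FOXO activity. The median log2 fold change of the 42 targets was -0.24 in E7.1, beside -0.02 over all genes. It was -0.02 in E6.1, beside 0.00, and 0.08 in both E6.2 and E7.2, beside 0.06 and 0.00. Over the 15 fits that each left out 1 library, 0.209% to 7.05% of all genes were called in E7.1. The count of targets called there ran from 0 to 8, and differed from 2 by more than 1.5 times in 14 of those fits. Without the low-factor libraries it was 12, of which 10 were lower, or 28.6% against 15.2% of all genes. Between the E7 and the E6 clones 12 of 42 targets were called, 4 higher and 8 lower, or 28.6% against 12.1% of all genes. *Il7r*, the interleukin-7 receptor gene that FOXO1 activates in early B cells, had 0 counts in all 15 libraries, below the floor of 3 counts.

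Regulators of FOXO proteins, namely PI3K, AKT and SGK kinases, AMPK, phosphatases, acetylases and nuclear export factors, were counted next, since FOXO activity is set mainly on the protein. Of 66 listed, 62 passed the filter, and 2 were called in E7.1 and 1 in E6.2, all lower, against 1.22% and 1.17% of all genes. None was called in E6.1 or E7.2, against 0.324% and 0.295%. An unadjusted p under 0.05 from edgeR was given to 23 in E7.1 and 10 in E6.2, beside 20% and 13.1% of all genes. It was given to 4 in E6.1 and 10 in E7.2, beside 6.71% and 13.3%. Of the 62 estimates in E7.1, 34 lay above 0 and 28 below. *Prkaa1* and *Prkaa2* code for the catalytic subunits of the AMP-activated protein kinase. *Prkaa1* stood at 106 ± 2.50 CPM in parental cells and at 65.7 ± 11.0 CPM in E6.2 (SD, n = 3), with the log2 fold change at -0.69 (edgeR adjusted p = 0.0233). Its 12 clone libraries all lay below the parental ones, as those of 0.885% of genes did. *Prkaa2* fell from 19.6 ± 2.76 to 10.6 ± 1.71 CPM in E7.1 (SD, n = 3), with the log2 fold change at -0.89 (edgeR adjusted p = 0.0223). *Deptor*, coding for an inhibitor of mTOR complexes, fell from 2.71 ± 0.345 to 0.854 ± 0.378 CPM in E7.1 (SD, n = 3), with the log2 fold change at -1.66 (edgeR adjusted p = 0.0398), and its 12 clone libraries also lay below the parental ones. The count in E7.1 ran from 0 to 7 over the 15 fits that each left out 1 library, beside 0.209% to 7.05% of all genes. It differed from 2 by more than 1.5 times in 13 of them. Without the low-factor libraries it was 17, with 11 higher and 6 lower, or 27.4% against 15.2% of all genes. Between the E7 and the E6 clones 11 of 62 regulators were called, 7 higher and 4 lower, or 17.7% against 12.1% of all genes.

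Corepressors and other partners of FOXP proteins, such as NuRD subunits, histone deacetylases and CtBP proteins, gave no call in any of the 4 clones among 26 tested of 28 listed. At an unadjusted p under 0.05 there were 8 in E7.1, 5 in E7.2 and 4 in each E6 clone, beside the shares of all genes given for the other forkhead genes. *Hdac3*, a histone deacetylase, and *Mta2*, a NuRD subunit, had the smallest unadjusted p in the mean of the 4 clones. *Hdac3* stood at 79.2 ± 3.94 CPM in parental cells and at 106 ± 8.45 CPM in E7.1 (SD, n = 3), with the log2 fold change at 0.42 (edgeR adjusted p = 0.0619). *Mta2* stood at 182 ± 5.90 CPM in parental cells, below all 12 clone libraries as in 0.568% of genes, with a log2 fold change of 0.28 in the mean of the 4 clones (edgeR adjusted p = 0.377). Without the low-factor libraries, 6 of 27 tested partners were called in E7.1, 5 higher and 1 lower, or 22.2% against 15.2% of all genes. Between the E7 and the E6 clones 6 of 26 were called, 4 higher and 2 lower, or 23.1% against 12.1% of all genes.

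**Figure D5:**
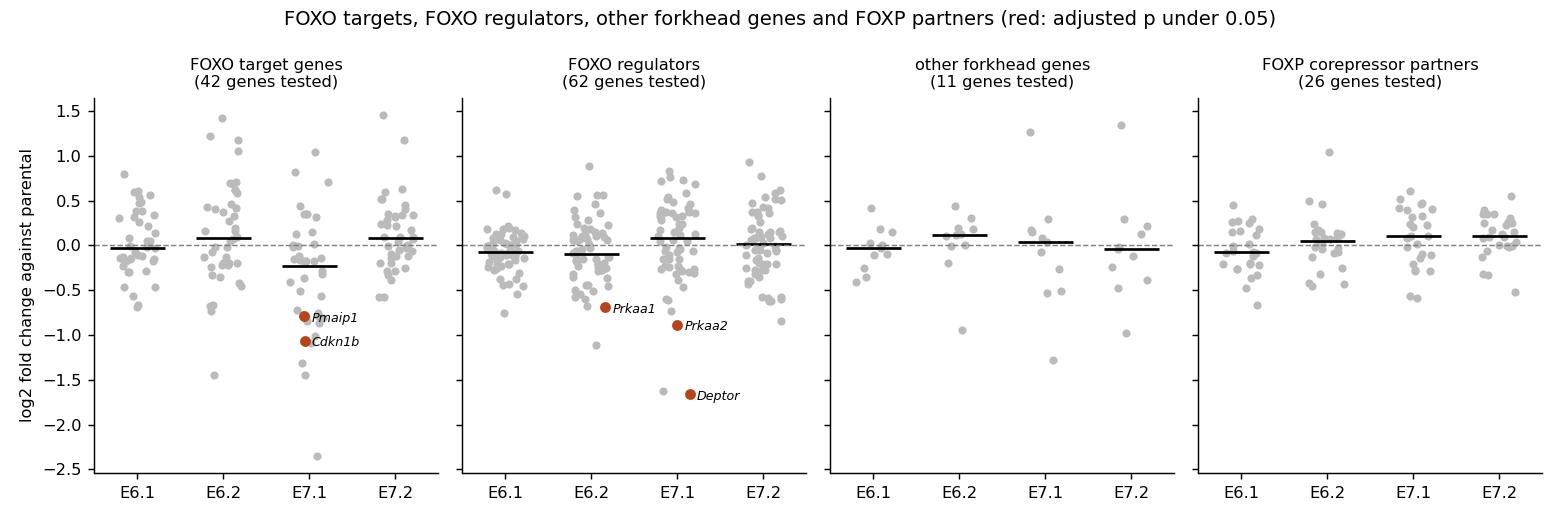
Log2 fold change against parental cells (vertical axis) of each tested gene in 4 lists, by clone, with horizontal bars at the list medians. Red points with names have an adjusted p under 0.05 from edgeR. The 5 red points, *Pmaip1*, *Cdkn1b*, *Prkaa1*, *Prkaa2* and *Deptor*, all lie below 0, and other forkhead genes and FOXP partners have none.

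*Foxp1* was the only member called in a clone by edgeR with all 15 libraries. The 3 genes whose line means on the log2 CPM scale were most like those of *Foxp1* over the 5 lines were *Gm26407*, *4930505K14Rik* and *Gm26824*, with root mean square differences of 0.0752, 0.0767 and 0.0965 among 8543 genes compared. All were poorly expressed, at 0.452, 1.03 and 0.477 CPM in parental cells, and they varied between the E6.2 libraries with an SD above their mean. Their likeness rested on replicate 1 of E6.2, the library with many otherwise low genes. With it left out, a choice made after the data were seen, *Gm26407*, *4930505K14Rik* and *Gm26824* ranked 1228, 3505 and 381 of 8840 genes compared. *Col4a4*, *Inhbe* and *Gm6377* then came first, with differences of 0.0937, 0.102 and 0.119 and levels of 1.44, 1.08 and 2.42 CPM in parental cells.

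Finally, the promoter windows of the members, 250 bases before to 50 after each RefSeq start on GRCm38.p6, were searched for the forkhead core TGTTTA on both strands and for its longer form TGTTTAC, which contains it. Windows were found for 5 members, 8 in all, and not for *Foxp2* and *Foxo4*. The core was in 4 of the 8, namely all 3 windows of *Foxp1* and 1 of 2 of *Foxp3*, against 13.4% of all 32851 promoters of this length, and the longer form was in 0 of the 8, against 3.65%. The windows of *Foxp4*, *Foxo1* and *Foxo3* held neither. The *Foxp1* windows are shown, since *Foxp1* was the one member called lower in a clone by edgeR with all 15 libraries. They are given with the core and its reverse complement in capitals, in transcript order on the reverse strand (chr6:99520944-99521243, chr6:99266466-99266765 and chr6:99028249-99028548). A match is a description of these letters and does not show binding.
Foxp1 window 1: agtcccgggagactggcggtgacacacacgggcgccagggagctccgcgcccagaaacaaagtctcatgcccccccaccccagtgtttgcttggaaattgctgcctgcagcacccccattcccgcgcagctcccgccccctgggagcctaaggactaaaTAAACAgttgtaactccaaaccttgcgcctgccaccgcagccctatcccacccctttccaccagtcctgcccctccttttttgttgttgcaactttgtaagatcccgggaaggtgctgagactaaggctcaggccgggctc
Foxp1 window 2: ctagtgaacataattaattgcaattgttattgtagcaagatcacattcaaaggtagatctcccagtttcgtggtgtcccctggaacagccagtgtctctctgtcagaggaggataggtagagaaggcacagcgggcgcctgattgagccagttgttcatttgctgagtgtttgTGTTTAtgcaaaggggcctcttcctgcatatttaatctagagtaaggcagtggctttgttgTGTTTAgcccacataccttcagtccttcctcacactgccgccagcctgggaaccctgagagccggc
Foxp1 window 3: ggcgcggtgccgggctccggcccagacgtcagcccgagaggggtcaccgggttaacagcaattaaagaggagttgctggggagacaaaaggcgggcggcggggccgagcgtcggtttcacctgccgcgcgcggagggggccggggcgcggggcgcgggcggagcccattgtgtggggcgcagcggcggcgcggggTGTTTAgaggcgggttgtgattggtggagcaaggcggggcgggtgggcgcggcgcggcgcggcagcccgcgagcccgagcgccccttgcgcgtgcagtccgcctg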

How the data were processed

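Total RNA from the 15 cultures was sequenced by the authors, who per the labels aligned reads with HISAT to mm10. The deposited counts are raw read pairs per gene from featureCounts 1.5.0 on a GRCm38 annotation with spike-ins, unstranded, at its default treatment of multi-mapping and overlapping reads. Exon lengths come from the deposited tables. Here, 92 spike-ins with 0 counts were dropped, and 40254 of 41388 genes were matched to a GENCODE M21 symbol. Counts were analysed in R 4.3.3 with edgeR 4.0.16 (filterByExpr, 13904 genes, TMM, quasi-likelihood, 1 fit of 15 libraries with the line as factor), with Benjamini-Hochberg adjustment within each of 6 comparisons and calls at an adjusted p under 0.05. Alternatives used DESeq2 1.42.0, other filters, blocks and left-out libraries. Simulated counts with known changes served to test the method. The members and lists were chosen with earlier results of these data known. List genes were named when called in at least 2 clones, when among the 3 largest calls of a clone, or, with no call, by the 2 smallest p in the mean of the clones. *Il7r* was named whatever its value, and the genes most like *Foxp1* by the smallest root mean square difference of centred line means of log2 CPM. *Foxn3* was named after its values were seen. p-values measure the spread between passages of single clones.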

Additional observations from a re-analysis of the deposited data

Results flagged for a closer look

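The difference between the edited exons passed its own test for *Foxp1* (log2 value -1.09 for the mean of E7.1 and E7.2 minus the mean of E6.1 and E6.2, edgeR adjusted p = 0.000609), with all 6 E7 libraries below all 6 E6 libraries, as in 1.75% of genes. The same comparison passed for *Cdkn1b*, at 57.9% of the E6 level (95% interval 0.451- to 0.744-fold, log2 value -0.79, edgeR adjusted p = 0.0135). It passed for *Prkaa2*, at 11.6 ± 1.61 against 15.6 ± 1.86 CPM (SD, n = 6, log2 value -0.42, edgeR adjusted p = 0.0332). It also passed for *Foxn3*, a forkhead gene at 9.87 ± 1.47 against 13.2 ± 2.12 CPM (SD, n = 6, log2 value -0.41, edgeR adjusted p = 0.0428), and that call was lost with the replicate block. Of all genes, 12.1% were called in this comparison. Each exon is represented by 2 clones, so exon and clone cannot be told apart.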

How the results depend on the processing

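Of 655 values of the members under other settings, 638 kept their side of the threshold and did not change sign at 2 decimals. *Foxo1* between E7 and E6, at 0.00 with all libraries, ran from -0.05 to 0.06 over the fits that left out 1 library. For *Foxp1* the log2 fold change in E7.2 was -1.67 (edgeR adjusted p = 0.0538) in a fit of only the 6 libraries compared, and in the mean of the 4 clones it was -0.84 (0.834) with the clones as 1 group of 12 libraries. Leaving out single libraries gave -1.44 to -1.10 in E7.1 (adjusted p up to 0.0533, without parental replicate 2), -1.84 to -1.53 in E7.2, and -1.11 to -0.79 in the mean of the clones, where the call was lost without parental replicate 2 (-0.79, 0.106) or 3 (-0.90, 0.0692). *Foxo1* in E7.1 was -0.37 (0.0463) by DESeq2's Wald test and -0.36 (0.0264) without the low-factor libraries. That setting, added after the data were seen, turned the estimates of *Foxp4* to -0.03 in E6.2 and -0.02 in the mean of the clones, and of *Foxo4* to -0.16 in E6.2, -0.08 in the mean of the clones and 0.07 between E7 and E6. Leaving out single libraries gave *Foxp4* -0.01 to 0.44 in E6.2, and *Foxo4* -0.14 to 0.38 in E6.2, -0.05 to 0.09 in the mean of the clones and -0.16 to 0.10 between E7 and E6, with *Foxo4* at -0.14, -0.05 and 0.10 and *Foxp4* at -0.01 without E6.2 replicate 3, and *Foxo4* at -0.03 in the mean of the clones without parental replicate 3. None of these turned estimates was called. Apart from the constructions named, the cause was not tested.

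The share of *Foxp1* in the Foxp sum of CPM with no length scaling was 84.5% (parental), 83.1% (clone E6.1), 78.1% (clone E6.2), 68.0% (clone E7.1) and 59.3% (clone E7.2), and per kilobase of the longest coding transcript, a setting added after the data were seen, 75.3%, 73.3%, 66.7%, 54.4% and 44.9%.

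Counts of called list genes moved more. By DESeq2 the regulators called were 7 in E7.1, 5 in E6.2, 2 in E7.2, 3 in the mean of the clones and 20 between E7 and E6, the targets 2 in E6.2 and 8 in E7.1, the FOXP partners 3 in E7.1, 1 in E6.2, 1 in E7.2, 1 in the mean and 11 between E7 and E6, and the members 2 in E7.1. Without the low-factor libraries, the regulators were 17 in E7.1, 1 in the mean and 30 between E7 and E6, the targets 1 in E6.2, 12 in E7.1 and 19 between E7 and E6, the partners 6 in E7.1 and 15 between E7 and E6, other forkhead genes 2 in E7.1, 1 in E7.2 and 5 between E7 and E6, and the members 2 in E7.1. With a 2-fold threshold added, the regulators were 1 in E7.1, 0 in E6.2 and 0 between E7 and E6, the targets 1 in E7.1 and 2 between E7 and E6, the partners and other forkhead genes 0 between E7 and E6, and the members 0 in the mean. With no filter on low counts, the targets were 4 in E7.1, the partners 1 in E6.2 and 3 and other forkhead genes 0 between E7 and E6. With only the 6 libraries compared, the regulators were 1 in E7.1, 1 in E6.1 and 0 in E6.2, the targets 1 in E7.1 and the members 0 in E7.2, and the members were 0 in the mean with 2 groups. Other forkhead genes called between E7 and E6 were 2 with DESeq2 size factors in edgeR and 2 with edgeR's newer dispersion method, which called 1 regulator in the mean of the clones. Over fits that left out 1 library, the regulators ran from 0 to 7 in E7.1, 0 to 2 in E6.2, 0 to 1 in E7.2, 0 to 1 in the mean and 3 to 26 between E7 and E6, the targets 0 to 1 in E6.2, 0 to 8 in E7.1, 0 to 1 in the mean and 4 to 14 between E7 and E6, the partners 0 to 1 in E6.2, 0 to 4 in E7.1 and 0 to 11 between E7 and E6, other forkhead genes 0 to 3 between E7 and E6, and the members 0 to 1 in E7.1 and in the mean.

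Over all genes, the calls in clones E6.1, E6.2, E7.1, E7.2, the mean of the clones and E7 against E6 were 45, 163, 169, 41, 70 and 1677. They were 155, 398, 1160, 254, 178 and 2684 by DESeq2, 74, 208, 343, 61, 106 and 1528 with no filter, and 132, 323, 2166, 219, 166 and 4734 without the low-factor libraries. With only 6 libraries they were 111, 45, 169 and 18 in the 4 clones, and with 2 groups 16 in the mean. Over the fits that left out 1 library, the share of all genes called ran from 0.584% to 1.59% in E6.2 and from 0.209% to 7.05% in E7.1. It ran from 0.0972% to 1.33% in E7.2, 0.181% to 0.689% in the mean and 2.77% to 26.8% between E7 and E6. Replicate numbers were not used as pairs in the main fit. Residuals of same-numbered parental and clone libraries correlated from -0.124 to 0.213, over 0.1 in 5 of 12 pairs. The mean correlation over all pairs of lines was 0.0531 for the same number and -0.0249 for different numbers, so a weak pairing was not excluded. The replicate block gave 1402 calls between E7 and E6, left *Foxp1* at -1.29 in E7.1, -1.68 in E7.2 and -1.11 between E7 and E6, called 0 other forkhead genes there, and changed no call of a member.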
